A study of Mus musculus with 4 samples.

Results

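Interferon β (Ifnb1), the 4 chains of the receptors for type I interferon (Ifnar1, Ifnar2) and interferon γ (Ifngr1, Ifngr2), and the 3 Janus kinases bound to those receptors (Jak1, Jak2, Tyk2) were followed through the LPS response of mouse bone marrow-derived macrophages. The genes were chosen by symbol, and all 8 were found, each once, among the 54532 genes of the deposited table. The macrophages were grown for 6 days in medium with 20% L929-conditioned medium from the marrow of C57BL/6 mice aged 6 to 8 weeks. Every mouse carried floxed Fbxw7 alleles (FBXW7f/f), and by the titles the KO libraries came from mice that also had LysM-cre and the WT libraries from mice without it, which the genotype tags contradict for 2 of the 4 libraries. LysM-cre is a recombinase expressed from the lysozyme 2 locus, which acts in cells of the myeloid line. The protein FBXW7 selects the substrates of an SCF ubiquitin ligase. The cells were harvested without treatment or after 3 h with lipopolysaccharide (LPS), which TLR4 senses, and polyadenylated RNA was sequenced. There was 1 library in each of the 4 groups, whether it came from 1 or several animals is not given, and no difference between 2 libraries has a replicate check.

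Interferon β is secreted soon after TLR4 signals through the adaptor TRIF to the kinase TBK1 and the factor IRF3. It binds a receptor made of the chains IFNAR1 and IFNAR2, which carry TYK2 and JAK1, and the kinases phosphorylate STAT transcription factors. Interferon γ, a product of lymphoid cells, binds IFNGR1 together with IFNGR2, which carry JAK1 and JAK2, and also signals through STAT factors. Macrophages bear both receptors, so the interferon β they release acts back on them and extends the LPS response to interferon-stimulated genes.

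Upstream sequences are shown for Ifnb1 and Jak2 because these genes had the largest LPS responses of the group and very different promoter composition. Each stretch is 190 bases long, from 250 to 61 bases before the RefSeq start of the gene, 5′ to 3′ on the gene's strand (GRCm38.p6). The Ifnb1 stretch lies at chr4:88522855-88523044 on the minus strand, and its capitals mark matches to AANNGAAA (the core bound by IRF factors), to the NF-κB consensus and to TATAAA. The Jak2 stretch lies at chr19:29251553-29251742 on the plus strand, and its capitals mark CpG dinucleotides.
Ifnb1: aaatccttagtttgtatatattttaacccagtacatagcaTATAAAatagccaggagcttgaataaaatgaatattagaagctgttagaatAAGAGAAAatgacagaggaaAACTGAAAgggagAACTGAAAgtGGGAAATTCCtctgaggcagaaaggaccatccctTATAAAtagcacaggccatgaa
Jak2: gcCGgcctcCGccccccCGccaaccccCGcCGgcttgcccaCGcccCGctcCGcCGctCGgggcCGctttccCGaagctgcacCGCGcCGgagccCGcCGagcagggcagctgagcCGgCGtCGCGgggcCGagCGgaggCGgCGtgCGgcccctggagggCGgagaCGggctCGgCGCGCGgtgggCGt

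All 8 genes had a RefSeq promoter window of 300 bases, from 250 before to 50 after the start, and both strands of it were searched for 5 motifs. AANNGAAA was found in 23.9% of the 32851 promoters of that length, the NF-κB consensus in 8.46%, both of them in 1.47%, and TATAAA in 13.6%. In the Ifnb1 window AANNGAAA occurred 3 times, beginning 159, 139 and 126 bases before the start, and the NF-κB match began 116 bases before it, close after the last of these. TATAAA occurred there at 210 and at 82 bases before the start. None of the other 7 windows held AANNGAAA or TATAAA. A longer IRF repeat, which is GAAA followed after any 2 bases by GAAA and so contains AANNGAAA, was present in 3.44% of promoters and in none of the 8. An NF-κB match lay 75 bases before the Ifngr2 start. TTCNNNGAA, the palindromic STAT site found in 8.30% of promoters, lay at 214 bases before the Ifnar2 start and across the Ifnar1 start, from base −5 to base 3. Jak2, Jak1, Ifngr1 and Tyk2 had a match to none of the 5 motifs in this window, which says only that these letters are not there. The Ifnb1 window held 3 CpG dinucleotides and was 42.7% G and C. The other 7 windows held 14 (Ifngr1) to 44 (Jak2) CpG and were 57.0% (Ifnar2) to 81.0% (Jak2) G and C, where the median over all promoters was 7 CpG and 52.7%.

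Libraries held 17610372 to 23835940 counts in genes, and 19258 to 21953 genes had at least 1 count. Levels are CPM, the count relative to library size after scaling by edgeR's TMM method, and the interval after a ratio of 2 libraries is an exact 95% binomial interval of the counts, which covers counting error only. TMM matters here. With library totals in its place the median LPS ratio of all genes shifted by −0.63 (log2) in the libraries titled WT and by −0.52 in those titled KO. The labels carry a doubt. The genotype tags give the floxed genotype to both untreated libraries and the cre genotype to both LPS libraries, against the titles, which were used here. Fbxw7 was at 17.9 (WT title) and 16.9 CPM (KO title) without LPS and at 9.99 and 11.9 CPM with it, so its gene-level count did not separate the titles. Lyz1 was at 2.85 (WT title) and 32.2 CPM (KO title) without LPS and at 33.5 and 2.67 CPM with it. The untreated KO title thereby resembled the LPS WT title in this gene. Lyz2, the gene that drives the recombinase, had a KO over WT ratio of 0.561 untreated and 1.85 after LPS. Every KO or WT direction below is between titled libraries, and every LPS ratio within a title, with the comparison of such ratios, depends on which untreated library is set against which LPS library.

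All 8 macrophage markers were detected, with a summed level of 15218 to 21387 CPM untreated and 20766 to 27296 CPM after LPS. Lyz2 was the largest part of it, at 8526 to 15205 CPM untreated and 10013 to 18513 CPM after LPS. Of the sets of other markers, T cell genes summed to 29.6 and 35.6 CPM untreated and to 56.1 and 63.0 after LPS, nearly all of it Cd4, while Cd3e had 0 counts in 3 libraries and 2 in the untreated KO title. B cell genes summed to 16.9 to 31.5 CPM untreated and 10.1 to 28.0 after LPS, nearly all of it Cd79b. Plasmacytoid dendritic cell genes, from a cell type known for interferon production, summed to 2.94 and 3.04 CPM untreated and 3.41 and 3.54 after LPS. Most of that was Cox6a2, at 2.58 and 2.90 CPM untreated and 2.06 and 2.55 after LPS. Ccr9 of the same set had 7 and 2 counts untreated and 23 and 15 after LPS. Siglech, another marker of this cell type, had 0 counts in both LPS libraries. Conventional dendritic cell genes reached 3.47 to 6.87 CPM untreated and 15.4 to 24.6 after LPS. Nearly all of the LPS sum was Xcr1 (13.0 and 8.94 CPM) and Itgax (2.12 and 15.1, from 5.11 and 1.31 untreated), WT title first. Zbtb46 went the other way, from 19 and 16 counts to 1 and 4, as did Clec9a, from 7 and 11 to 1 and 2. Neutrophil genes reached 3.71 to 4.21 CPM untreated and 3.29 to 10.9 after LPS. Mast cell genes reached 0.271 to 2.69 and 3.60 to 4.17 CPM, fibroblast genes 1.27 to 1.31 and 1.47 to 3.23, NK cell genes 0.177 to 0.316 and 0.176 to 0.311, and erythroid genes 0.136 to 0.283 and 0.0621 to 0.176. Klk1, Cd209a, Mcpt4 and Hbb-bs were at 0 in every library. Of these markers of other cells, Lck (T cell) and Xcr1 (conventional dendritic cell) rose with LPS in an edgeR test over all 4 libraries, by 4.55 ± 0.69 (adjusted p = 0.0192) and 4.02 ± 0.55 (adjusted p = 0.0152), from under 1 CPM to 3.12 and 6.09 CPM and to 13.0 and 8.94 CPM. Lck had 1 and 11 untreated counts and passed the low-count filter through its LPS libraries alone. The part of other cell types in the results below was not tested. In bulk RNA, fewer cells of a type and less RNA per cell cannot be told apart.

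The question put to all 4 libraries was which of the 8 genes responded to LPS whatever the title. Ifnb1 and Jak2 did. In edgeR's quasi-likelihood test of an additive genotype and treatment model, Ifnb1 rose by 8.60 ± 0.47 log2 units (± gives an SE derived from the F statistic) with an adjusted p of 0.00438, and Jak2 rose by 3.96 ± 0.29 with an adjusted p of 0.00538. The 6 others did not pass. Across all 13989 genes tested, 9.35% rose and 5.14% fell, beside 2 and 0 of these 8. With library totals 916 genes rose and 3133 fell, in place of 1308 and 719. The median LPS effect of the 8 genes was 0.45, against −0.05 over all genes. Ifnb1 passed the low-count filters through its LPS libraries alone. The model leaves 1 residual degree of freedom, and the spread in it is the departure of the 4 libraries from additivity. The quasi-likelihood fit draws each gene's spread toward a trend over all genes, so each test also leans on the spread of other genes.

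**Figure D1:**
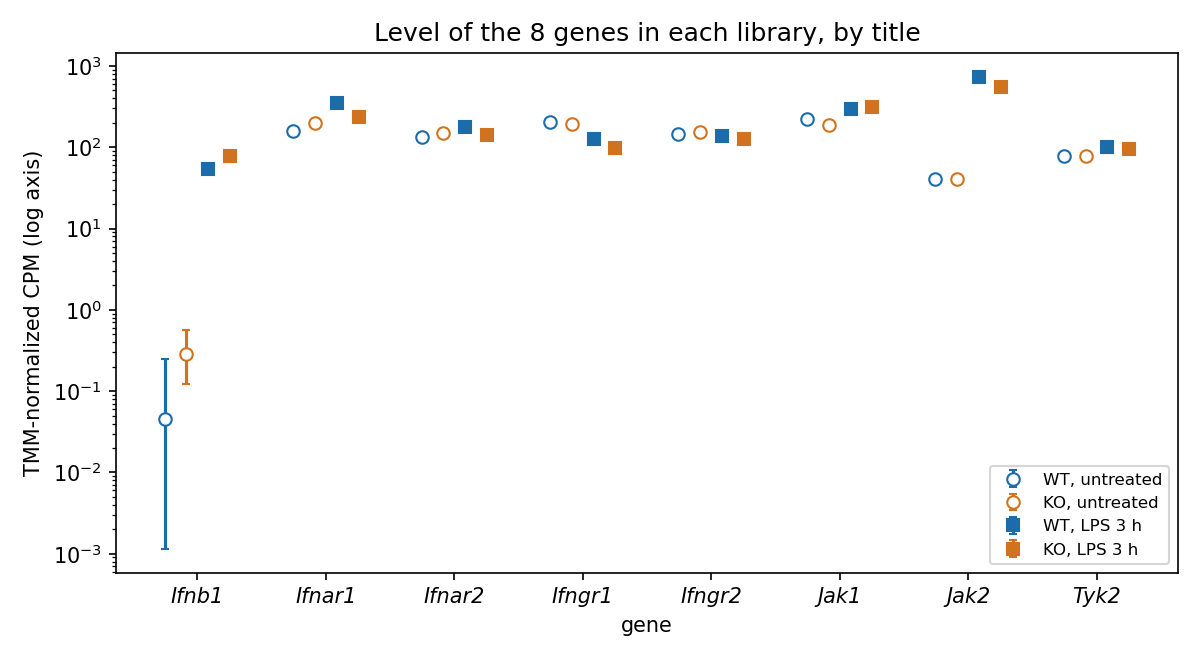
Level of each gene (TMM-normalized CPM, log axis) in the 4 libraries, with open circles for untreated and filled squares for LPS, blue for titles WT and orange for titles KO. Bars are exact 95% Poisson intervals of the counts, hidden by the symbol where narrow. Ifnb1 went from 0.0452 and 0.283 CPM to 53.4 and 78.1, and Jak2 from 40.6 and 41.0 CPM to 727 and 555, while the receptor chains, Jak1 and Tyk2 stayed between 77.0 and 351 CPM.

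Ifnb1 (ENSMUSG00000048806, chromosome 4, 88522025 to 88522774, minus strand, mm10) was near silent without LPS. Without LPS it had 1 count under the WT title and 8 under the KO title, and with LPS it had 908 and 1257. Those were 0.0452, 0.283, 53.4 and 78.1 CPM. Both LPS libraries were thus far above both untreated ones. The LPS ratio was 1181 (211 to 46688) within the WT titles, where it rests on 1 untreated count, and 276 (140 to 640.2) within the KO titles. Dividing the KO-titled response by the WT-titled one gave 0.234, with an interval of 0.0292 to 1.87 by the delta method and 0.00526 to 1.75 by an exact conditional method. A difference of responses was therefore not detectable at this depth. After LPS the KO title had 1.46 (1.34 to 1.59) times the Ifnb1 level of the WT title, under the 2-fold rule used for calls.

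Other interferon genes were scarce, and those that appeared were mostly interferon α genes in 1 library. Of 20 further ligand genes, 11 had 0 counts in every library, among them Ifne and the type III genes Ifnl2 and Ifnl3. A count of 0 allows up to 0.106 to 0.186 CPM, depending on the library. Ifng, the ligand of the second receptor, was counted once in the untreated KO title and 2 times in the LPS WT title, and was at 0 in the others. Ifna5 was the 1 ligand of this list with a mean of at least 1 CPM, at 1 and 0 counts without LPS and 8 and 77 with it, WT title first. Summed over the 14 Ifna genes, of which 6 had any count, there were 1 and 0 counts without LPS and 9 and 108 with it. The LPS library titled KO thus had 12.7 (6.44 to 28.5) times the summed interferon α level of the LPS library titled WT, 6.71 against 0.529 CPM, where Ifnb1 differed by a ratio of 1.46. Interferon α genes are close copies of each other, so how reads were split among them is uncertain. Ifnz, another gene of the locus, had 6 counts, all in the LPS library titled KO.

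Ifnar1 and Ifnar2 encode the chains of the type I receptor, IFNAR1 carrying TYK2 and IFNAR2 carrying JAK1. They lie on chromosome 16 in one 192.8-kb stretch with Il10rb, a chain of the interleukin 10 receptor, and Ifngr2, all on the plus strand. Ifnar1 (ENSMUSG00000022967, 91485238 to 91507441) stood at 158 CPM (WT title) and 200.2 CPM (KO title) without LPS and at 351 and 237 CPM with it. Both LPS libraries were above both untreated ones. The LPS ratio was 2.22 (2.13 to 2.31) within the WT titles, a call by the 2-fold rule, and 1.18 (1.14 to 1.23) within the KO titles, which was none. The KO-titled response was 0.534 (0.504 to 0.566) times the WT-titled one. Both the call and this ratio depend on the titles: set against the untreated library of the other title, Ifnar1 was at 1.75 (1.69 to 1.82) in the LPS library titled WT and between 1.43 and 1.57 (95% interval, log2 ratio 0.58) in that titled KO, with no call. In the 4-library test the LPS effect was 0.70 ± 0.31 (adjusted p = 0.192). Its WT-titled call ends with library totals in place of TMM, where the log2 ratio was 0.52 in the WT titles and, with the direction turned, −0.27 in the KO titles.

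Ifnar2 (ENSMUSG00000022971, 91372783 to 91405589) was at 134 (WT title) and 148 CPM without LPS and at 179.6 and 141 CPM with it. The LPS library titled KO lay between the untreated ones, so the groups overlapped. Its LPS ratio was 1.34 (1.27 to 1.41) within the WT titles and 0.952 (0.904 to 1.002) within the KO titles, and the LPS effect over all libraries was 0.17 ± 0.24 (adjusted p = 0.639), a value that was −0.40 with library totals (−0.21 in the WT titles). Of its 3329 exonic bases, 630 are shared with Gm21970, which was listed at 0 counts in every library. Compared per length in the deposited FPKM, Ifnar1 was below Ifnar2 without LPS, at 0.660 (0.629 to 0.694) of it in the WT title and 0.757 (0.728 to 0.788) in the KO title. After LPS the chains were near parity, at 1.10 (1.05 to 1.14) and 0.942 (0.895 to 0.993). How reads in the bases shared with Gm21970 were counted was not given, so these FPKM ratios are uncertain beyond counting error. Il10rb, the gene between them, was at 72.4 and 91.2 CPM without LPS and at 99.9 and 65.5 with it.

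Both interferon γ receptor chains were lower in the LPS libraries, Ifngr1 more so than Ifngr2. Ifngr1 (ENSMUSG00000020009, chromosome 10, 19591949 to 19610229, plus strand) encodes the chain that binds the ligand and carries JAK1. It stood at 207 and 193 CPM without LPS and at 126 and 98.6 CPM with it, WT title first, so that both LPS libraries were below both untreated ones. The LPS ratios were 0.610 (0.579 to 0.642) and 0.512 (0.484 to 0.541), short of 2-fold in each title. In the 4-library test the effect was −0.84 ± 0.22 with an adjusted p of 0.0703. It passed when treatment alone was fitted (−0.83 ± 0.18, adjusted p = 0.0240) and with no low-count filter (adjusted p = 0.0204). It also passed with library totals (−1.41, adjusted p = 0.0228). Far more genes fell in these settings: 2146 of 13989, 1798 of 25648 and 3133 of 13989, in place of 719 of 13989.

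Ifngr2 (ENSMUSG00000022965, chromosome 16, 91547072 to 91565623) encodes the second chain, which carries JAK2. It stood at 146 and 155 CPM without LPS and at 139 and 127 CPM with it, the narrowest span of the 8 genes as a ratio of highest to lowest, with both LPS libraries just below both untreated ones. The LPS effect was −0.18 ± 0.22 (adjusted p = 0.589), or −0.75 with library totals (adjusted p = 0.0627), and the ratios were 0.950 (0.9004 to 1.002) in the WT titles and 0.820 (0.777 to 0.864) in the KO titles. In FPKM, Ifngr1 was 1.88 (1.79 to 1.96) and 1.64 (1.58 to 1.71) times Ifngr2 without LPS, and 1.21 (1.14 to 1.28) and 1.03 (0.961 to 1.10) times Ifngr2 after it, WT title first. In the LPS library titled KO the levels of these chains did not differ beyond counting error.

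**Figure D2:**
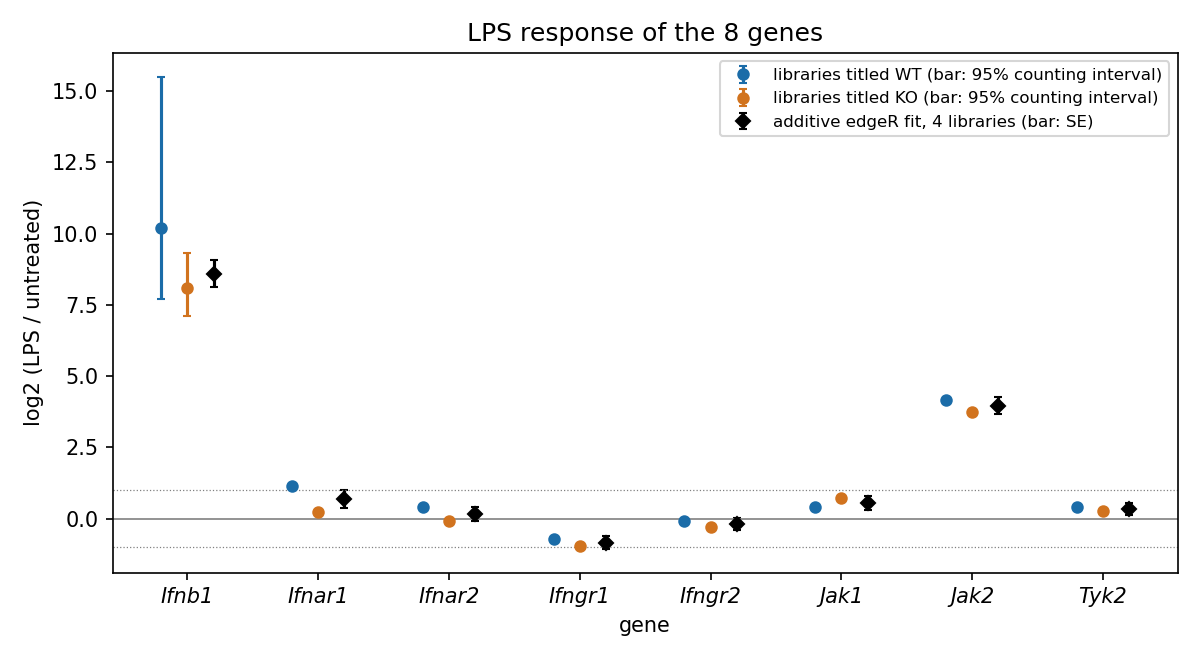
LPS against untreated, on the log2 scale, for each gene within the libraries titled WT (blue), within those titled KO (orange) and in the additive fit of all 4 libraries (black diamonds). Bars are 95% counting intervals for the first pair and SE for the fit, and dotted lines mark 2-fold. Ifnb1 and Jak2 lie far above the others, Ifnar1 passes 2-fold in the WT titles alone, and Ifngr1 lies between −0.71 and −0.97.

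Of the kinases, Jak2 stood apart. Jak2 (ENSMUSG00000024789, chromosome 19, 29251828 to 29313080, plus strand) was counted 897 (WT title) and 1158 times (KO title) without LPS and 12367 and 8931 times with it, or 40.6, 41.0, 727 and 555 CPM. The untreated libraries did not differ beyond counting error (ratio 1.01, 0.925 to 1.10). LPS libraries were 17.9-fold (16.8 to 19.2) higher within the WT titles and 13.5-fold (12.7 to 14.4) higher within the KO titles. The KO-titled response was 0.755 (0.689 to 0.827) times the WT-titled one. By p, Jak2 was gene number 107 of 13989 in the test of LPS.

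Jak1 (ENSMUSG00000028530, chromosome 4, 101152367 to 101265282, minus strand), the kinase shared by both receptors, was at 223 and 189 CPM without LPS and at 295 and 311 CPM with it, WT title first. Both LPS libraries were above both untreated ones, by ratios of 1.32 (1.27 to 1.37) and 1.64 (1.58 to 1.71), and the LPS effect was 0.56 ± 0.24 (adjusted p = 0.183). Tyk2 (ENSMUSG00000032175, chromosome 9, 21104068 to 21131243, minus strand), the kinase of IFNAR1, was at 77.0 and 79.0 CPM without LPS and at 102 and 95.6 CPM with it, again higher in both LPS libraries. Its ratios were 1.33 (1.24 to 1.42) and 1.21 (1.13 to 1.29), with an LPS effect of 0.34 ± 0.20 (adjusted p = 0.301). Both directions turn over with library totals, where the effects were −0.02 for Jak1 (−0.23 in the WT titles, 0.20 in the KO titles) and −0.23 for Tyk2. An antisense gene, 1700084C06Rik, shares 554 of the 6865 exonic bases of Tyk2 and was listed at 0 counts.

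Per length, the order of the kinases turned over with LPS. In deposited FPKM, Jak1 was first without LPS (30.4 in the WT title, 25.7 in the KO title), Tyk2 second (11.0 and 11.3) and Jak2 last (7.92 and 8.02). After LPS Jak2 was first, at 144 and 112, Jak1 second at 40.6 and 43.5, and Tyk2 last at 14.8 and 14.1. Jak2 made up 16.1% and 17.8% of the summed FPKM of the 3 kinases without LPS and 72.2% and 66.0% after it. The ratio of Jak2 to Jak1 went from 0.261 (0.243 to 0.280) and 0.312 (0.292 to 0.332) to 3.54 (3.43 to 3.66) and 2.56 (2.48 to 2.66). That of Tyk2 to Jak1 was 0.324 to 0.440 in the 4 libraries. These are ratios within a library, which do not depend on the scaling between libraries.

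**Figure D3:**
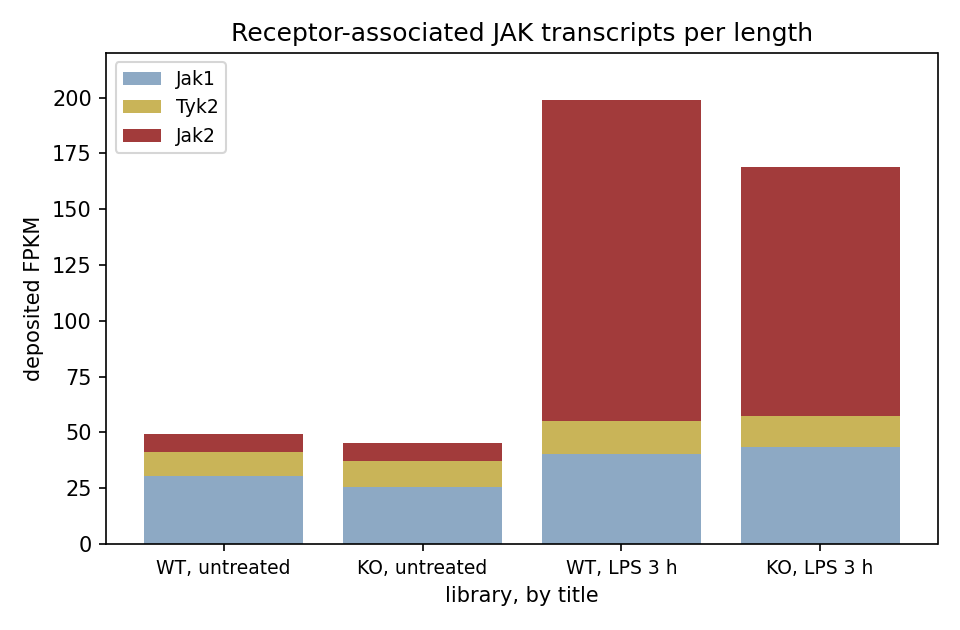
Deposited FPKM of Jak1, Tyk2 and Jak2, stacked, in each library by title. The sum was 49.3 and 45.1 without LPS and 199 and 169 after it, and the Jak2 share of it went from 16.1% and 17.8% to 72.2% and 66.0%.

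The order of all 8 genes by FPKM showed the same turnover. Without LPS, Ifngr1 was highest (71.5 in the WT title, 66.6 in the KO title), followed by Ifnar2 (39.6 and 43.8) and Ifngr2 (38.1 and 40.5). Ifnar2 and Ifngr2 did not differ beyond counting error in the WT title. Jak1 and Ifnar1 took the next places, in opposite order in the 2 titles, and Ifnb1 was last at 0.0592 and 0.372. After LPS, Jak2 and Ifnb1 were the highest of the 8, with Ifnb1 at 70.8 in the WT title and 105 in the KO title. In the KO title the intervals of Jak2 and Ifnb1 overlapped, as did those of Jak1 and Ifnar2, of Ifnar2 and Ifnar1, and of Ifngr1 and Ifngr2. Such overlap does not show equal levels: the direct ratio of Ifnar1 to Ifnar2 there was 0.942 (0.895 to 0.993), which excludes 1. Tyk2 was last after LPS in both titles.

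The comparison of KO with WT titles asked what loss of Fbxw7 in myeloid cells does to these transcripts, as far as the titles hold. None of the 8 genes was called, untreated or after LPS, by the 2-fold rule, against 5.23% of 12324 genes untreated (3.06% higher and 2.17% lower) and 8.12% after LPS (3.41% higher and 4.71% lower). Of the genes called untreated, 58.5% were higher, a share of 48.4% with library totals and 69.4% with log2(FPKM + 1). In the additive model the genotype effects ran from −0.23 ± 0.22 for Ifngr1 to 0.80 ± 0.39 for Ifnb1, and no gene of the 13989 passed in edgeR, where 39 had an unadjusted p under 0.05. DESeq2 and limma-voom called 0 genes too, and edgeR without a low-count filter called 2, none of them among the 8.

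Smaller differences of 4 genes went in opposite directions in the untreated and LPS pairs. How many of all genes did so was not counted. Ifnar1 in the KO title was 1.27 (1.21 to 1.32) times its WT-titled level untreated and 0.676 (0.649 to 0.704) times after LPS. Ifnar2 went from 1.10 (1.05 to 1.16) to 0.786 (0.744 to 0.830) and Ifngr2 from 1.06 (1.02 to 1.11) to 0.917 (0.864 to 0.973). With library totals the untreated Ifngr2 value was 0.00 on the log2 scale. Jak1 did the reverse, from 0.846 (0.814 to 0.879) to 1.05 (1.01 to 1.10). Lyz1 went from 11.3 (8.75 to 14.8) to 0.0798 (0.0571 to 0.109) in the same pairs, and whether these turns share a source was not tested. For Ifngr1 the KO title was lower both times, at 0.930 (0.894 to 0.968) and 0.780 (0.731 to 0.833). Jak2 and Tyk2 were close to 1 untreated, at 1.01 (0.925 to 1.10) and 1.02 (0.962 to 1.09). After LPS Jak2 was at 0.763 (0.742 to 0.784) and Tyk2 at 0.936 (0.873 to 1.003). Ifnb1 untreated was at 6.26 (0.840 to 278), which rests on 8 and 1 counts.

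**Figure D4:**
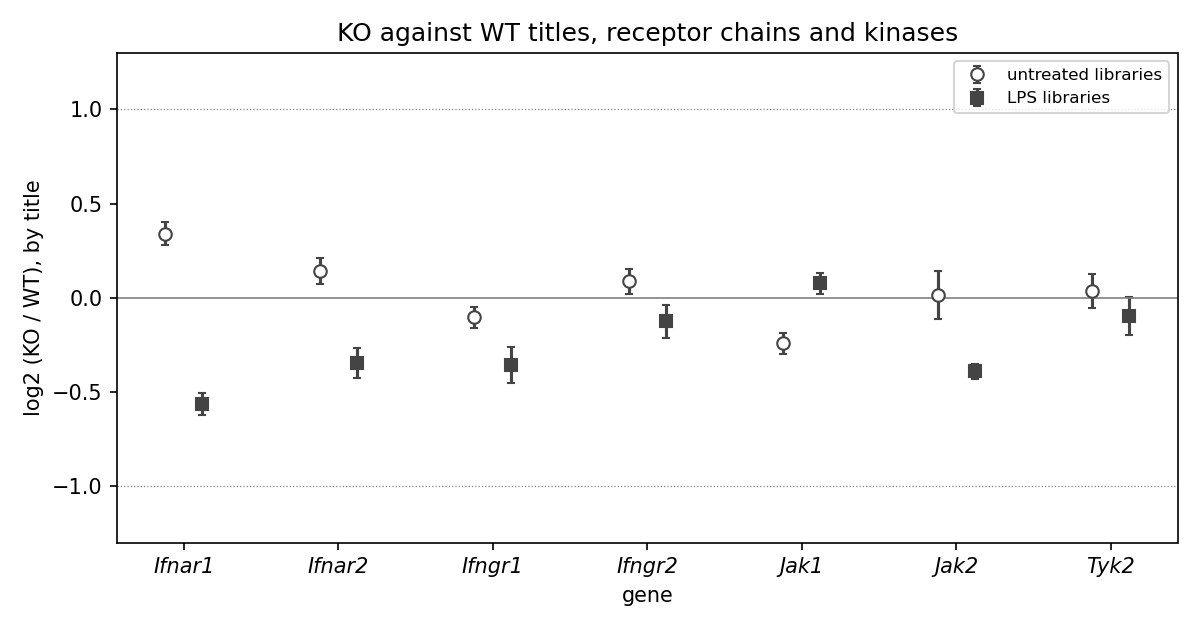
KO over WT by title, on the log2 scale, for the 4 receptor chains and 3 kinases, with open circles for untreated and filled squares for LPS libraries. Bars are 95% counting intervals and dotted lines mark 2-fold. All points lie inside 2-fold, and the untreated and LPS values of Ifnar1, Ifnar2, Ifngr2 and Jak1 lie on opposite sides of 0.

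The authors' deposited table, which compares the reads of 2 libraries at a time, gave values on the same sides. With 1 library on each side, its p-values could not draw on any spread between replicates. In the authors' deposited table Ifnb1 had log2 folds of 10.02 (WT titles) and 8.03 (KO titles), with adjusted p of 3.33e-34 and 9.22e-34. Jak2 had 4.17 and 3.71 in the authors' deposited table, with adjusted p of 6.5e-17 and 6.83e-14. Ifnar1 in the WT titles (1.16, adjusted p = 0.0325) was the other LPS comparison under 0.05 in the authors' deposited table, against 0.821 in the KO titles. Ifngr1 had 0.283 and 0.0682 there. For KO against WT titles the authors' deposited table listed an adjusted p of 1 for all 8 genes, untreated and after LPS.

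Within titles, 3 of the 8 genes were called higher after LPS in the WT titles (Ifnb1, Jak2, Ifnar1) and 2 in the KO titles (Ifnb1, Jak2), and none was called lower. Of all 12324 genes measured, 30.3% were called in the WT titles (15.7% higher, 14.6% lower) and 32.1% in the KO titles (15.4% higher, 16.7% lower). The share of higher genes among those called, 51.7% and 48.1%, was 22.2% and 22.6% with library totals and 66.5% and 64.1% with log2(FPKM + 1). At a threshold of 1.5-fold, where 48.3% of all genes were called in the WT titles and 52.8% in the KO titles, Ifngr1 was called lower in both titles and Jak1 higher in the KO titles. Set against the untreated library of the other title, Ifnb1 and Jak2 were again called higher in both LPS libraries. In the same comparison Ifngr1 was called lower in the LPS library titled KO, at 0.476 (0.449 to 0.504). The share of all genes called in these pairs was not counted.

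For likeness, each gene's log2 CPM over the 4 libraries was centred and set against 11117 other protein-coding genes with a mean of at least 1 CPM, by Euclidean distance in log2 units. Ifnb1 had few near neighbours. The nearest was the chemokine gene Ccl5 at 0.51, then Il12b, the p40 chain of interleukin 12, at 0.78 and the cytokine gene Il27 at 1.29, and 0 genes lay within 0.5. Untreated, Ifnb1 was at 0.0452 and 0.283 CPM and Il12b at 0 and 0.0354 CPM, WT title first. Both reached the mean of 1 CPM through their LPS libraries alone. Their untreated log2 values, and so the distances from Ifnb1, depend on the prior count of 2. Around Jak2 there were 29 genes within 0.5, led by Prag1 at 0.09, the apoptosis regulator Cflar at 0.21 and the NF-κB regulator Tnip3 at 0.26. Ifnar1 was nearest to Tm9sf4, Pls3 and E2f5, and Ifngr1 to Clk2, Prkag1 and Gon4l, all at 0.04 to 0.05. Among the 8 genes the closest pair was Ifnar2 and Tyk2, at 0.26, and Jak1 and Tyk2 followed at 0.32. The other flat genes had crowds of neighbours, from 2358 within 0.5 for Jak1 to 3675 for Ifngr2. Their nearest were Odr4, Mboat7 and Nsrp1 for Ifnar2, Cdk5, Babam2 and Atrn for Ifngr2, Rtn3, Chm and Ppp1cb for Jak1, and Cops5, Rsrc1 and Drg1 for Tyk2, at distances from 0.01 to 0.05. Over 4 libraries such closeness is a description and is common.

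Other genes of the pathway, in lists by role, are set beside the 2 of 8 that rose and the median of 0.45 above. Of all 13989 genes tested, 9.35% rose and 5.14% fell. With library totals 916 of them rose and 3133 fell, and with treatment alone 2339 rose and 2146 fell. With no low-count filter 1999 of 25648 rose and 1798 fell. The list counts in each setting are to be read beside these. Upstream, 8 of 19 inducers of interferon β rose and 0 fell (median effect 1.39; 6 and 1 with library totals), including Irf1 (3.73 ± 0.29), Nfkb1 (3.05 ± 0.28) and Tlr3 (2.52 ± 0.25). Irf3, the factor that TBK1 activates, had an effect of −0.31 ± 0.20 (adjusted p = 0.327), and Irf7 one of 1.83 ± 0.76 (adjusted p = 0.169), with 136 and 593 CPM untreated and 1264 and 812 after LPS. Of 9 genes (the STATs, Irf9 and Jak3), 4 rose and 0 fell (median 0.84). With library totals 2 rose and 1 fell, and with no low-count filter or treatment alone 7 rose. Stat5a rose by 2.71 ± 0.21, Stat3 by 1.71 ± 0.24 and Stat2, which acts below the type I receptor, by 1.53 ± 0.28. Jak3, the remaining kinase of the family, had an effect of 0.80 ± 0.20 (adjusted p = 0.0617).

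Of 14 negative regulators of this signalling, 6 rose and 0 fell (median 1.19). With library totals 5 rose and 3 fell, and with no low-count filter or treatment alone 7 rose and 2 fell. Socs1 and Socs3, which bind and block the kinases, rose by 7.22 ± 0.38 and 7.12 ± 0.35, and Cish, of the same family, by 5.60 ± 0.41. Usp18, which acts on IFNAR2, rose by 3.31 ± 0.27. Among 4 genes of IFNAR1 turnover, Fbxw11, a subunit of a ubiquitin ligase that marks IFNAR1, rose by 1.40 ± 0.25, and Prkd2, a kinase that primes it, fell by 1.66 ± 0.36 on the log2 scale. Btrc, the close relative of Fbxw11, had −0.85 ± 0.33 (adjusted p = 0.154). With library totals Fbxw11 no longer passed and 0 of these 4 genes rose, with 2 falling.

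Receptors of other cytokines that use the same kinases split. Of 21 tested genes of 26, 5 rose and 2 fell (median 0.56; 5 and 3 with library totals, 7 and 4 with no low-count filter, 8 and 3 with treatment alone), close to the median of the 8 genes. The interleukin 15 receptor gene Il15ra rose by 4.67 ± 0.25, Il23r by 5.23 ± 0.56 and the oncostatin M receptor gene Osmr by 6.09 ± 0.71, the last from 1 count in each untreated library. Il23r had 3 and 4 untreated counts. Il23r and Osmr passed the low-count filter through their LPS libraries alone, so they were tested only because they were high there. Il6ra, the interleukin 6 receptor, fell by 2.50 ± 0.27 and Lifr by 1.94 ± 0.30 on the log2 scale. Ifnlr1, the receptor for type III interferon, had 2, 2, 1 and 1 counts, so the receptor for those ligands was barely detected.

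Downstream, 20 of 23 type I interferon targets rose and 0 fell (median 3.81), with Cxcl10 at 9.48 ± 0.57, the antiviral gene Rsad2 at 6.49 ± 0.60 and Cmpk2 at 6.31 ± 0.49. Of 15 tested interferon γ targets of 16, 11 rose and 0 fell (median 3.73), including Cxcl9 (10.08 ± 1.20), Gbp5 (8.62 ± 0.53) and Socs1, which the list of negative regulators also holds. Cxcl9 had 6 and 0 untreated counts and passed the filter through its LPS libraries, so its fitted value depends on the prior count. Those that did not pass were Ciita, the activator of MHC class II genes (−1.76 ± 0.69), H2-Aa (−0.09 ± 0.36), Cd74 (0.57 ± 0.31) and Fcgr1 (0.93 ± 0.53). Many of these genes are known targets of type I interferon too. These lists were written with earlier results of these libraries known, so their counts are descriptions.

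**Figure D5:**
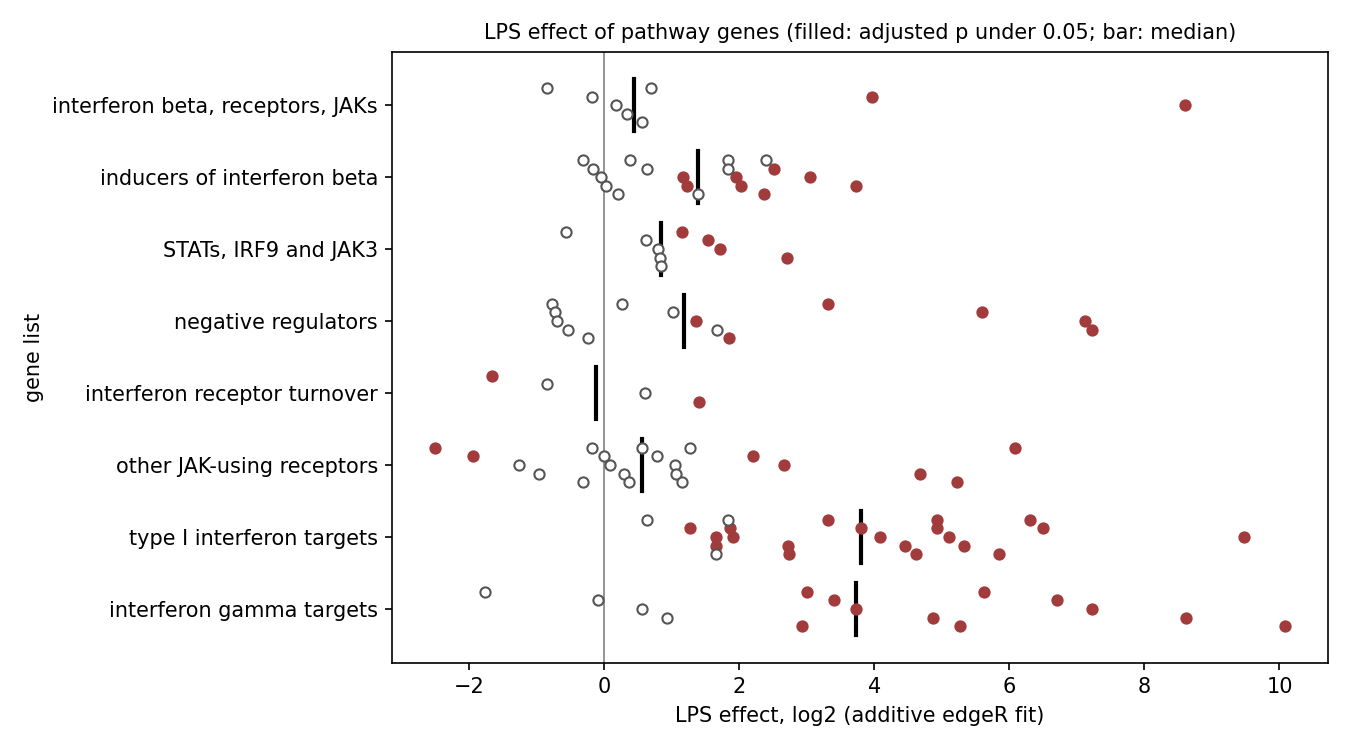
LPS effect (log2, additive edgeR fit of 4 libraries) of each tested gene in the pathway lists, 1 point a gene, filled where the adjusted p was under 0.05, with a bar at the list's median. The 8 genes in the top row have a median of 0.45, while the medians of type I and interferon γ targets are 3.81 and 3.73.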

How the data were processed

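The authors deposited a read count per gene for each of 4 libraries, per the file headers, and the submitters' processing notes name HISAT2 2.0.5 and the build mm10. The authors also deposited FPKM, per the file headers, whose implied library sizes were 0.817 to 1.28 times the count totals. The authors' deposited table adds log2 folds, p-values and adjusted p-values for 4 comparisons (file headers). How reads were counted, on which strand and how the authors tested was not given in the sources used here. A further 8 per-sample columns were not used. The gene lengths, deposited by the authors, served to check the FPKM. Samples were grouped by title.

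The 8 genes and all lists were chosen with earlier results of these data known. The fit over 4 libraries used edgeR 4.0.16 (quasi-likelihood F test, TMM, filterByExpr, Benjamini-Hochberg over all genes) in R 4.3.3. Ratios of 2 libraries were called at 2-fold (prior count of 2) when the 95% interval excluded 1 and the mean was at least 1 CPM. A count of 0 was bounded at 3 counts. Alternatives were DESeq2 1.42.0, limma 3.58.1 (voom), other scalings, filters and thresholds, FPKM plus 1, and treatment alone. Named list genes were the 3 of largest LPS effect in each list and any called against its majority, the 3 genes nearest each of the 8 and, as label checks, Fbxw7, Lyz1 and Lyz2; others (Irf3, Irf7, Jak3, Usp18, Il10rb and genes that did not pass) were singled out after their values were seen. Markers covered macrophages, neutrophils, T, B, NK, plasmacytoid and conventional dendritic, mast and erythroid cells and fibroblasts. Intervals were computed in SciPy 1.17.1 and tables in pandas 2.3.3, under Python 3.11.15. Of the identifiers 54409 were in GENCODE M21, with the position unchanged for 98.3%, and promoters came from RefSeq (GRCm38.p6). Some results are not reported here.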

Additional observations from a re-analysis of the deposited data

Results flagged for a closer look

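The KO over WT ratio of 4 genes lay on opposite sides of 1 in the untreated and LPS pairs, with both counting intervals excluding 1. How many of all genes meet this rule was not counted, so the 4 are a description. The ratio after LPS divided by that untreated was 0.534 for Ifnar1, 0.712 for Ifnar2, 0.863 for Ifngr2 and 1.25 for Jak1. For Ifngr2 this value was 0.931 (0.864 to 1.003) with library totals, where its untreated log2 ratio was 0.0042. Lyz1 turned in the same pairs, from 32.2 against 2.85 CPM (KO and WT titles, untreated) to 2.67 against 33.5 CPM after LPS. With 1 library per group the difference was not tested against replicate error.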

How the results depend on the processing

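Ifnb1 and Jak2 kept their direction and call under every scaling, filter, tool and model tried. With library totals the LPS effect turned to −0.40 for Ifnar2, −0.015 for Jak1 and −0.23 for Tyk2. The count of genes called for LPS in the 4-library fit, 2027 in the reported setting, was 4049 with library totals (916 rising and 3133 falling), 3797 with no filter and 4485 with treatment alone. For genotype it was 0, and 2 with no filter. Calls within pairs of libraries numbered 3740 (LPS, WT titles), 3958 (LPS, KO titles), 644 (KO against WT, untreated) and 1001 (KO against WT, after LPS). At 1.5-fold they were 5947, 6506, 1724 and 2315, and with log2(FPKM + 1) they were 2268, 2279, 229 and 370. With no filter the untreated KO against WT count was 1176. Of the 8 genes, 4 were called in the KO titles at 1.5-fold, where 52.8% of all genes were, against 2 at 2-fold. With library totals Ifngr1 was called lower in both titles (−1.34 and −1.49, log2) and Ifnar1 was not called. Of all genes, that setting called 4111 lower and 1171 higher in the WT titles. It called 3938 lower and 1147 higher in the KO titles. The additive fit compares LPS within titles and so is paired by title. No other pairing was possible, because each group held 1 library with no replicate number to pair by. Leaving out a library would leave the additive fit no residual degree of freedom. The exact conditional interval for Ifnb1 and the ratios to the untreated library of the other title were chosen after seeing the data. Depth limits Ifnb1 without LPS and the other ligands, and nothing here measures variation between animals.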
